A study of Danio rerio with 16 samples.

Results

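The comparison described here is the course over time within zebrafish embryos injected with insulin. It set the 4 libraries taken at 4 hours post injection (hpi) against the 4 taken at 0.5 hpi, chosen by their titles, 8 of the 16 libraries of the series. All embryos were of the ABTL background, a laboratory wild-type background, were injected at 4 days post fertilization (dpf), and carried no named mutation or transgene. Each received 1 nl of human recombinant insulin into the caudal aorta, the main trunk vessel of the embryo. The other 8 libraries came from embryos given 1 nl of PBS by the same route, 4 at 0.5 hpi and 4 at 4 hpi, and are used below to compare the courses. RNA came from whole embryos, pooled by 10 for each library, so a change in a tissue's RNA and a change in its number of cells cannot be told apart. The sources used here give no insulin dose, hour of day or light at sampling, so the hours since injection and the hour of day cannot be told apart within a treatment. Whether the pools of a group came from separate clutches or injection sessions is not stated, so p-values measure the spread between pools.

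Insulin binds its receptor tyrosine kinase and acts through PI3K and AKT to raise glucose use and to silence the fasting programme of the liver, and a tyrosine phosphatase such as ptpn6 (shp1), named in the series title, can damp such signalling. Vertebrate cells carry a circadian clock in which CLOCK and BMAL proteins switch on the period (per), cryptochrome (cry) and Rev-erb (nr1d) genes, whose products act back as repressors. In zebrafish these clocks sit in most tissues and respond directly to light. Immediate-early genes such as fos and egr1 switch on within minutes of a stimulus or a wound and are then switched off.

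Library totals were 7931641 to 8643202 counts at 0.5 hpi and 6535173 to 9177091 counts at 4 hpi. Of 31452 genes in the tables, 21650 had enough counts to be tested. Under 10 CPM (counts scaled to a common library size) of wdr90 and also of si:dkey-15h8.1 was found in 4 libraries, which are set apart below from the other 12. They were insulin replicates 1 and 2 at 0.5 hpi, insulin replicate 1 at 4 hpi and PBS replicate 1 at 0.5 hpi. In a principal component analysis of the 8 insulin libraries, the first component (33.4% of the variance) put the 0.5 hpi replicates 1 and 2 at -45.39 and -46.66 and replicates 3 and 4 at 16.07 and 13.76. The second (25%) put replicate 1 of 4 hpi at -62.64, against -4.98 to 20.7 for the other insulin libraries. These 3 insulin libraries also held the most erythroid marker RNA (5862 to 6111 summed CPM over 27 genes, against 2357 to 3399 in the other 5). The results below are therefore also given for the 12 libraries without those 4, which leaves 2 insulin libraries at 0.5 hpi and 3 at 4 hpi. In PBS at 0.5 hpi, replicates 2 and 3 were almost the same library (89 of 22287 genes differed beyond counting error) and were kept as 2 libraries. They do not enter the means of the insulin groups. The spread per gene was estimated over all 16 libraries, so they do affect the p-values of the insulin comparison.

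Between 0.5 and 4 hpi the insulin embryos lost transcripts of immediate-early factors and of most clock repressors, and gained transcripts of glucokinase, heat-shock proteins and several splicing regulators. A gene is said to have risen or fallen where edgeR's quasi-likelihood test gave an adjusted p under 0.05, with the Benjamini-Hochberg adjustment made across the 21650 genes. By this rule 633 genes changed (2.92% of those tested), of which 254 were higher (1.17%) and 379 lower (1.75%) at 4 hpi. A change of over 2-fold was seen for 47 of the higher and 101 of the lower genes. The libraries of the 2 times did not overlap for 596 of the 633, and for 10.1% of all genes tested. The median log2 change over all genes was -0.00631. Without the 4 libraries that stood apart, 1057 genes changed (4.8%), 494 of them higher (2.25%) and 563 lower (2.56%), and 416 of the 633 were among them in the same direction. The count fell to 336 without insulin replicate 1 and 381 without replicate 2 of 0.5 hpi. It fell to 364, 347 and 417 without replicates 2, 3 and 4 of 4 hpi. With PBS replicates 2 and 3 of 0.5 hpi summed it was 529. Lanes named in the headers (none for 3 of the 4 libraries at 0.5 hpi, lane 5 or 7 for 3 of the 4 at 4 hpi) moved partly with time. A term for a named lane left 478 genes, and the 7 libraries of the series with no lane, 1 of them insulin at 4 hpi, left 0 in edgeR (689 at an unadjusted p under 0.05).

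The same interval in PBS embryos changed 2946 genes (13.6%), 1723 higher (7.96%) and 1223 lower (5.65%). That count was 1829 and 1852 without PBS replicates 2 or 3 of 0.5 hpi, 1704 without PBS replicate 2 of 4 hpi, and 1926 with the almost identical pair summed. It was 4302 in the 12 libraries. Scaled to library totals it was 2235 higher and 732 lower. Of the 633 genes of the insulin course, 73 also passed in PBS in the same direction, which is 11.5% of the insulin calls and 2.48% of the PBS calls, and 115 passed in PBS in the opposite direction. The difference between the courses (insulin change minus PBS change) was tested in the same model and passed for 2076 genes (9.59%; 3.83% more positive and 5.76% more negative with insulin). That count was 1563 with the almost identical PBS pair summed and 2880 in the 12 libraries. The difference passed for 380 of the 633. These included 140 genes that rose and 236 that fell with insulin and differed from PBS in that same direction. The 633 were chosen by the insulin change, which is 1 side of the tested difference, so these counts are a description only. For 187 of the 633 neither the PBS change nor the difference passed.

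**Figure D1:**
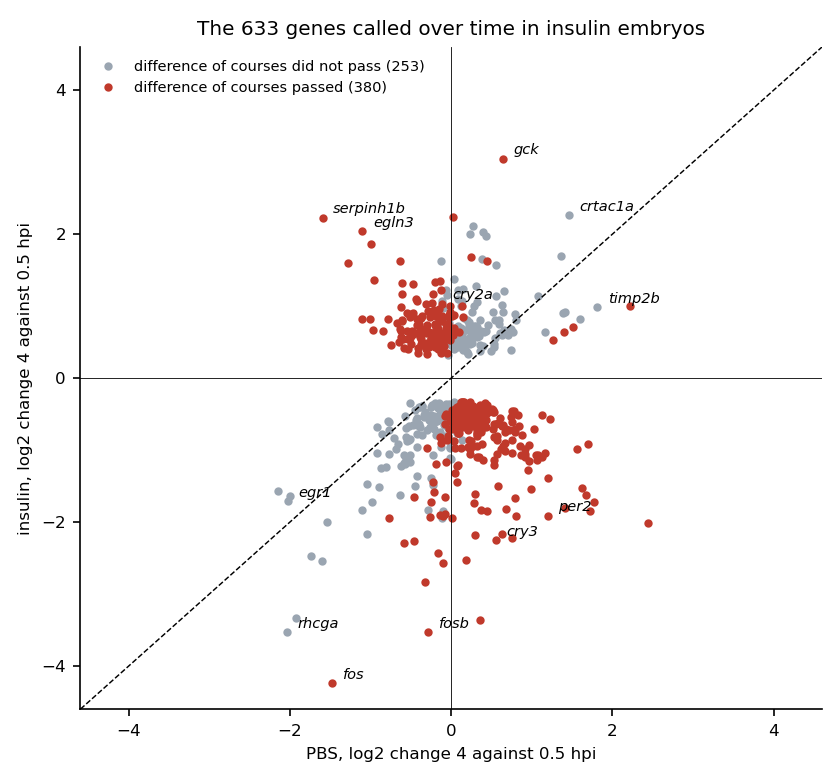
Each point is one of the 633 genes that changed between 0.5 and 4 hpi in insulin embryos; the x axis is the log2 change in PBS embryos, the y axis that in insulin embryos, and the dashed line marks equal change. Red marks the 380 genes whose courses differed (edgeR, adjusted p under 0.05) and grey the others; fos, fosb, per2 and cry3 lie far below the line and gck and serpinh1b far above it, while egr1 and crtac1a lie near it.

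Clock repressors formed the group with the highest share of falling genes among the 33 process lists. The lists were written with earlier results of these data known, so this rank is a description. Of 27 tested members of the period, cryptochrome, Rev-erb and related repressor families and the photolyases, 18 fell and 1 rose, with a median log2 change of -1.17. In PBS embryos 2 of the 27 fell and 7 rose (median 0.07), and the difference of courses passed downward for 17 and upward for 1. In the 12 libraries 20 fell and 2 rose with a median of -1.19, and without any 1 insulin library 15 to 17 fell.

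Of the period genes, whose proteins bind CLOCK and BMAL, per1b (chromosome 7) measured 215, 199, 218 and 209 CPM in the 0.5 hpi insulin libraries and 53.6, 60.5, 58.6 and 52.4 CPM in those of 4 hpi. Every late library lay below every early one. The log2 change of per1b was -1.90 (SE 0.10, adjusted p = 2.83e-10), against -0.14 in PBS, and the difference was -1.76 (adjusted p = 1.02e-07). per2 (chromosome 2), the light-inducible period gene of fish, had 171 and 182 CPM in early replicates 1 and 2, 321 and 300.0 in replicates 3 and 4, and 60.4 to 71.1 CPM at 4 hpi. The early libraries of per2 thus fell into a lower and a higher pair along the split of the libraries, and all 4 late libraries lay below both. The log2 change of per2 was -1.91 (SE 0.18, adjusted p = 4.31e-06), and it was -2.25 in the 12 libraries. In PBS embryos per2 rose by 1.2 (adjusted p = 0.000285), which made the difference of courses -3.11 (SE 0.25). per1a (chromosome 10) fell from 71.8 ± 15.8 to 12.4 ± 4.42 CPM (SD, n = 4; log2 change -2.53, SE 0.21, edgeR adjusted p = 1.47e-06). per3, chosen after its values were seen, fell by 1.06 with insulin and rose by 1.07 in PBS.

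The cryptochromes are repressors related to DNA photolyases. cry3 (chromosome 25) measured 91.9, 106.5, 97.8 and 105.4 CPM at 0.5 hpi and 22.8, 21.4, 18.9 and 21.3 CPM at 4 hpi. Its log2 change was -2.25 (SE 0.12, adjusted p = 2.83e-10), with a PBS change of 0.55 and a difference of -2.80. A second entry with the same symbol, also on chromosome 25, did not pass (48.2 and 44.6 CPM, log2 change -0.11, adjusted p = 0.86), though it fell by 0.55 in the 12 libraries, and whether the entries share reads was not tested. cry1b (chromosome 18) went from 37.2, 45.3, 44.5 and 47.5 CPM to 14.1, 14.2, 15.8 and 15.9 CPM (log2 change -1.54, SE 0.12, adjusted p = 1.465e-07). In PBS embryos cry1b rose by 0.99 (adjusted p = 1.33e-05), and the difference was -2.53. The member that rose was cry2a, named here after its value was seen. It went from 217 to 248 CPM at 0.5 hpi to 425 to 506 CPM at 4 hpi, a log2 change of 1.03 (SE 0.12, adjusted p = 2.14e-05), against -0.11 in PBS. The groups did not overlap, so cry2a moved opposite to its relatives cry1a (-1.10), cry1b and cry2b (-0.72), of which cry1a and cry2b were also chosen after their values were seen.

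The Rev-erb genes encode nuclear receptors that repress the bmal genes. nr1d1 (chromosome 3) had 162, 198, 142 and 136 CPM at 0.5 hpi and 28.6, 33.8, 38.0 and 29.5 CPM at 4 hpi. The log2 change was -2.29 (SE 0.20, adjusted p = 1.47e-06), and the difference from the PBS course was -1.70 (adjusted p = 0.000719). nr1d4b (chromosome 11) fell from 21.1 ± 3.79 to 3.94 ± 1.51 CPM (log2 change -2.42, SE 0.37, edgeR adjusted p = 0.0025). Both passed in the 12 libraries as well, with log2 changes of -2.02 and -1.99.

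**Figure D2:**
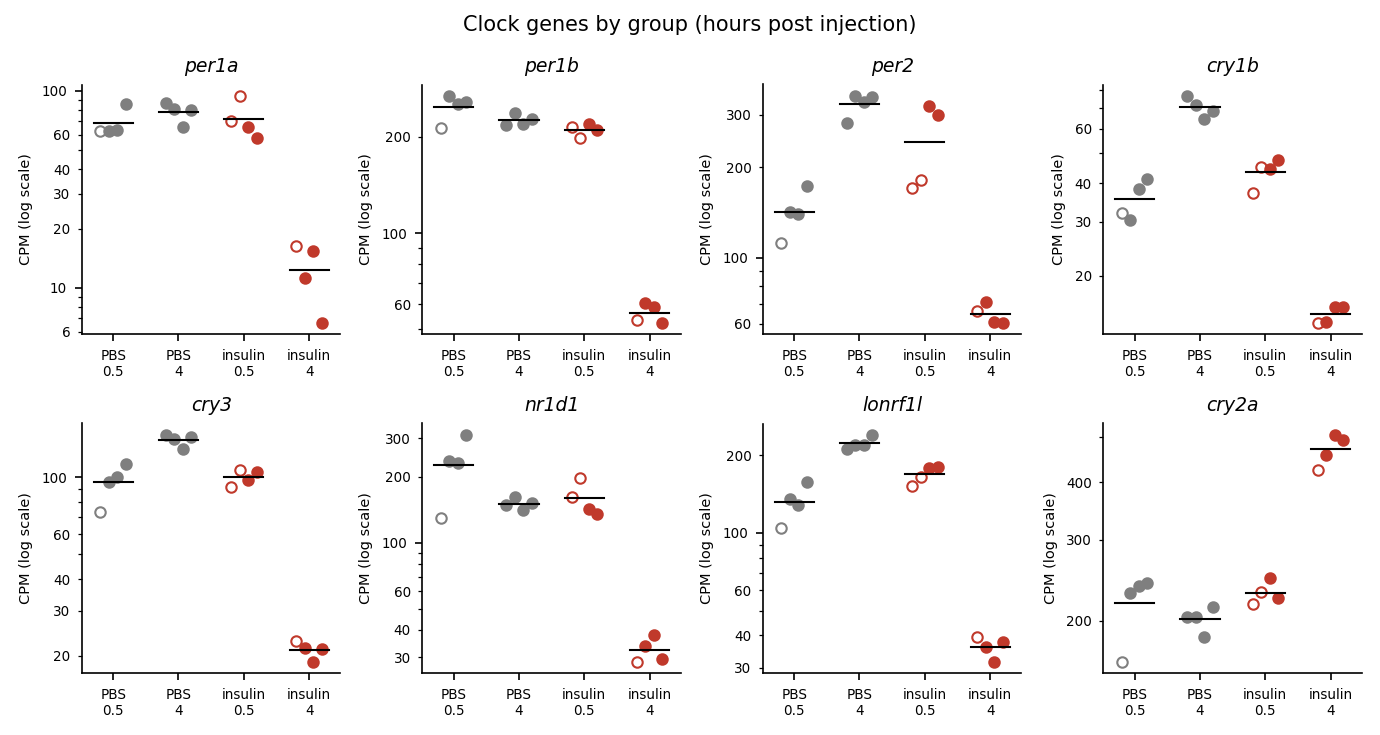
CPM (log axis) of 8 clock and clock-linked genes in the PBS and insulin libraries at 0.5 and 4 hpi; each point is 1 library of 10 embryos, bars are means of 4 libraries, and open circles are the 4 libraries that stood apart. For the 7 genes other than cry2a the insulin libraries of 4 hpi lie below every other library, and for cry2a they lie above every other library.

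The clock's activating arm did not pass: none of 9 tested clock and bmal genes changed with insulin in edgeR (median -0.46), although all 9 had a negative log2 change and 4 fell in the 12 libraries. In PBS 6 of the 9 rose (median 0.52), and the difference of courses passed downward for 7. Of 16 tested output genes, which carry the rhythm to other genes, 9 fell and none rose (median -0.65). In PBS 5 rose and none fell, and the difference passed downward for 11. The RING-finger gene lonrf1l (chromosome 8) measured 153, 165, 178 and 179.8 CPM at 0.5 hpi and 39.4, 36.1, 31.6 and 37.7 CPM at 4 hpi. Its log2 change of -2.22 (SE 0.12, adjusted p = 2.83e-10) stood against 0.76 in PBS, and the difference was -2.98. nfil3-5 (chromosome 6), of a family of bZIP repressors, fell from 148 ± 14.7 to 47.2 ± 8.51 CPM, and the PAR bZIP activator gene dbpb (chromosome 16) from 56.3 ± 13.1 to 20.5 ± 3.22 CPM (SD, n = 4). Their log2 changes were -1.65 and -1.45, with PBS changes of -0.08 and -0.22.

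Immediate-early transcription factors followed the clock genes. Of 38 tested, 17 fell and 1 rose (median log2 change -0.69), and in the 12 libraries 13 fell and 1 rose. In PBS 16 fell and 5 rose (median -0.26), and the difference of courses passed downward for 10 and upward for 2. That lean was nearly gone in the 12 libraries, where the difference passed downward for 7 and upward for 6. fos (chromosome 20), a subunit of the AP-1 factor, had 237, 150.3, 111 and 77.3 CPM at 0.5 hpi and 5.36, 11.7, 6.13 and 6.80 CPM at 4 hpi. The groups were far apart in spite of the spread among the early libraries. The log2 change of fos was -4.24 (SE 0.37, adjusted p = 2.12e-05), the largest fall by the naming rule. It was -3.46 in the 12 libraries, second to rhcgl1 (-3.82). fos fell in PBS too, by 1.48, to 94.3 CPM, and the difference of -2.76 passed (adjusted p = 0.00298). fosb (chromosome 18) went from 69.5, 48.7, 43.2 and 30.4 CPM to 4.69, 3.14, 5.195 and 3.55 CPM. Its log2 change was -3.53 (SE 0.31), against -0.29 in PBS, where it stayed at 41.6 CPM at 4 hpi.

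Other early genes fell in both treatments. egr1 (chromosome 14), a zinc-finger factor, had 277, 206, 191 and 149.5 CPM at 0.5 hpi and 60.6, 66.0, 64.5 and 60.25 CPM at 4 hpi. The log2 change of egr1 was -1.71 with insulin and -2.02 in PBS, and the difference of 0.31 (SE 0.21, adjusted p = 0.37) did not pass. The difference was 0.70 and passed (adjusted p = 0.00868) in the 12 libraries, with a fall of 1.40 with insulin. The AP-1 partner genes batf and jdp2 (both on chromosome 20) fell by 2.55 and 3.33 with insulin and by 1.60 and 1.92 in PBS. Their differences, -0.95 (SE 0.37) and -1.41 (SE 0.45), did not pass (adjusted p = 0.12 and 0.058). junbb (chromosome 3) fell by 1.94 with insulin and 0.77 in PBS, with a difference that passed (-1.18, adjusted p = 0.0113). Early levels of fos, fosb, egr1, batf and jdp2 were highest in replicate 1, one of the libraries that stood apart. The 1 member that rose was klf2a, a Kruppel-like factor named after its value was seen (41.8 to 60.8 CPM, log2 change 0.54, adjusted p = 0.00695). Of 18 MAPK feedback inhibitors, which shut off the ERK cascade, 2 fell and none rose, a share above the 2.92% of all genes tested. dusp5 (chromosome 22), an ERK phosphatase, fell from 15.8 ± 4.299 to 7.51 ± 0.94 CPM (log2 change -1.07, edgeR adjusted p = 0.00594) while it rose by 0.86 in PBS (difference -1.93).

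Glucokinase had the largest rise by the naming rule over all libraries, and the third largest of the named genes in the 12 libraries, after trim35-30 and egln3. gck (chromosome 8), whose enzyme traps glucose in liver and islet cells, measured 1.25, 1.74, 4.67 and 3.099 CPM at 0.5 hpi and 23.9, 25.3, 14.8 and 25.9 CPM at 4 hpi. All late libraries lay at least at 14.8 CPM and no early library above 4.67 CPM. The log2 change was 3.05 (SE 0.36, adjusted p = 9.14e-05) and 2.51 in the 12 libraries. In PBS gck went from 3.70 to 5.82 CPM, which did not pass (0.64, adjusted p = 0.26), and the difference of 2.41 did (SE 0.52, adjusted p = 0.0084), though not in the 12 libraries (1.97, adjusted p = 0.065). Of 49 tested genes of glycolysis and glucose uptake, 3 rose and none fell (median 0.13), a share above the 2.92% of all genes tested. The others were hexokinases. hkdc1 (chromosome 13) rose from 18.5 ± 5.13 to 37.0 ± 5.05 CPM (log2 change 1.00, edgeR adjusted p = 0.00272; difference 0.87, which did not pass in the 12 libraries). hk2 (chromosome 5) rose about equally in insulin (0.67) and PBS (0.65) embryos, and its call was lost without replicate 2 of 0.5 hpi.

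Among 21 gluconeogenic genes 2 rose and none fell (median 0.22, with 19 of 21 above 0). The share that passed was above the 2.92% of all genes tested. pck1 (chromosome 6), the rate-limiting enzyme gene of gluconeogenesis, had 232, 273, 275 and 290 CPM at 0.5 hpi and 462, 397, 419 and 312 CPM at 4 hpi. The groups did not overlap, and the log2 change was 0.57 (SE 0.14, adjusted p = 0.0343). The call was lost in the 12 libraries (0.44, adjusted p = 0.106) and without replicates 1, 2 or 3 of either time, and the difference from the PBS course did not pass (0.25, SE 0.20). hnf4a (chromosome 23), a nuclear receptor gene of liver, gut and pancreas, rose by 0.79 (adjusted p = 0.0183), a call lost without replicate 3 of either time, with a difference from PBS of 0.94. The arrestin-related gene txnipb (chromosome 16), which restrains glucose uptake, did not pass (18.0 ± 6.61 and 23.9 ± 2.44 CPM, log2 change 0.41, edgeR adjusted p = 0.31). It fell by 1.69 in PBS, so that the difference of 2.1 (SE 0.29, adjusted p = 0.000207) passed, and in the 12 libraries it rose by 0.92. Its paralog txnipa (chromosome 19) had 311 and 319.8 CPM (log2 change 0.04, SE 0.21), and igfbp1a (chromosome 20), an IGF-binding protein gene, 37.3 and 26.7 CPM (-0.48, SE 0.23). Neither of these passed.

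Lipid genes split. Of 40 tested lipogenesis genes 2 rose and 3 fell (median 0.09), a share above the 2.92% of all genes tested. In the 12 libraries 1 rose and none fell, a share below the 4.8% of all genes there. In PBS 9 rose and 1 fell, a share above the 13.6% of all genes. acaca (chromosome 5), acetyl-CoA carboxylase of the cytosol, rose from 49.1 ± 8.60 to 74.2 ± 3.78 CPM (log2 change 0.59, edgeR adjusted p = 0.011). lpin1 (chromosome 17), a phosphatidate phosphatase and coactivator gene, fell from 55.2 ± 11.3 to 25.1 ± 6.74 CPM (-1.14, edgeR adjusted p = 0.00296), but not in the 12 libraries (-0.90, adjusted p = 0.13). In PBS lpin1 rose by 1.065, and the difference was -2.20 (adjusted p = 6.96e-05). elovl1a (chromosome 2), a fatty acid elongase gene, fell by 0.87 with overlapping libraries. Its call was lost in the 12 libraries (-0.54, edgeR adjusted p = 0.080) and without replicates 1 or 2 of 0.5 hpi or 2 or 4 of 4 hpi. None of 38 cholesterol genes changed in edgeR (median 0.01, and -0.02 when scaled to library totals), while 8 fell in the 12 libraries (median -0.25). The fatty acid receptor gene pparg (chromosome 11) rose from 7.34 ± 1.74 to 13.3 ± 2.33 CPM (0.87), a call lost in the 12 libraries and without replicates 1 or 2 of 0.5 hpi or 2 or 3 of 4 hpi. ppargc1b (chromosome 14), a coactivator of mitochondrial genes, fell from 111 ± 7.61 to 65.3 ± 8.64 CPM (-0.77, edgeR adjusted p = 0.000291; difference -1.08), and odc1 (chromosome 17), the first enzyme of polyamine synthesis, fell from 151 ± 21.5 to 92.5 ± 4.64 CPM (-0.71). odc1 rose by 1.02 in PBS, a difference of -1.73 (adjusted p = 8.62e-06).

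Of 40 tested receptors, adaptors and kinases of the insulin pathway 1 rose, the AKT gene akt2l (0.48, chromosome 10). That share is near the 2.92% of all genes. Of 37 tested brakes on the pathway 2 rose and 1 fell, a share above it. ptpn1 (chromosome 8), a phosphatase of the insulin receptor, rose from 41.1 ± 2.78 to 53.8 ± 2.90 CPM (0.39), with 0.75 in PBS. ddit4 (chromosome 12), an inhibitor of mTORC1, rose from 12.5 ± 5.28 to 24.6 ± 2.11 CPM (0.98; 1.65 in the 12 libraries), and grb10a (chromosome 19), an adaptor that binds the insulin receptor, fell by 0.45. All 4 calls depended on individual libraries. akt2l was lost without replicates 1 or 2 of 0.5 hpi or any library of 4 hpi, ptpn1 without replicates 2 or 3 of 0.5 hpi or 1, 2 or 3 of 4 hpi. ddit4 was lost without each of the 8 insulin libraries but replicate 2 of 0.5 hpi, and grb10a without each of the 8. The calls were also lost without some PBS libraries (2 of them for akt2l, 3 for grb10a and 5 for ddit4), and that of akt2l in the 12 libraries (0.26, adjusted p = 0.22), where its list had no member up and 1 down. The growth factor gene igf2b (chromosome 25) fell by 0.41, a call lost in the 12 libraries and without replicates 1 or 2 of 0.5 hpi or 1, 3 or 4 of 4 hpi.

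ptpn6 has 2 entries on chromosome 16 in the tables, both under 6 CPM in every library of the series. The entry ENSDARG00000013916 had 1.63, 2.785, 3.04 and 3.35 CPM at 0.5 hpi and 4.29, 5.63, 5.46 and 4.33 CPM at 4 hpi. Every late library lay above every early one, with an exact two-sided permutation p of 0.0286, the smallest that 70 splits allow. Over all genes it did not pass (log2 change 0.87, SE 0.29, adjusted p = 0.12; 0.72 in the 12 libraries, adjusted p = 0.18), and with a term for a named lane it did (1.2, adjusted p = 0.023). It went from 2.998 to 1.67 CPM in PBS, and the difference of courses passed (1.73, SE 0.43, adjusted p = 0.0155). The second entry, ENSDARG00000089043, had 2.63, 2.67, 1.64 and 3.099 CPM at 0.5 hpi and 2.95, 1.95, 3.33 and 2.47 CPM at 4 hpi, which overlap (log2 change 0.09, exact permutation p = 0.69). Its fall in PBS passed (-1.03, adjusted p = 0.0284) and its difference of courses did not (1.12, adjusted p = 0.089). Reads could be split between near-identical entries, and their sum was 5.21 ± 0.96 CPM at 0.5 hpi and 7.60 ± 0.86 CPM at 4 hpi (SD, n = 4; exact permutation p = 0.0286).

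Fewer inflammatory genes passed over time with insulin than in PBS. In both lists below the share that changed with insulin was above the 2.92% of all genes tested (13.6% in PBS). Of 32 tested cytokines, chemokines and prostaglandin synthases 1 rose and 2 fell, with a median log2 change of 0.01 (-0.02 with library totals). In PBS 16 of the 32 rose and none fell (median 0.67), and the difference of courses passed downward for 12 and upward for none. Of 48 NF-kB and STAT factors and regulators 2 rose and 3 fell with insulin (median -0.03), 18 rose and none fell in PBS (median 0.20), and the difference passed downward for 11. In the 12 libraries the insulin counts were 2 up and 1 down for the first list (median 0.13) and 3 up and 2 down for the second. The difference of courses then passed downward for 6 and upward for 1 of the first list, and downward for 8 and upward for 1 of the second. Summed neutrophil marker RNA (20 genes, none called with insulin) was 367 to 498 CPM at 0.5 hpi and 562 to 658 CPM at 4 hpi, and 410 to 493 and 646 to 839 CPM in PBS. Summed macrophage markers (25 genes, none called) overlapped, at 1302 to 1592 and 1316 to 2011 CPM. The part of either cell type in these results was not tested.

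The 3 list members that changed were an inhibitor of matrix proteases and the cyclooxygenases. ptgs2a (chromosome 2), an inducible prostaglandin synthase, had 87.1, 64.2, 44.3 and 39.9 CPM at 0.5 hpi and 19.3 to 21.9 CPM at 4 hpi. It fell by 1.5 (SE 0.25, adjusted p = 0.0039), and by 1.02 in the 12 libraries, and the difference from PBS (-1.05) did not pass (adjusted p = 0.065). ptgs2b (chromosome 20) fell by 1.67, a call lost in the 12 libraries and without 6 of the 8 insulin libraries (all but replicates 3 and 4 of 0.5 hpi). The ptgs2b call was also lost without PBS replicates 2 or 3 of 0.5 hpi or 1 or 3 of 4 hpi. timp2b (chromosome 3) rose from 19.1 ± 1.68 to 37.7 ± 10.1 CPM (0.98, edgeR adjusted p = 0.0128) and by more in PBS (1.81), with a difference of -0.83 that did not pass (adjusted p = 0.075). cebpb (chromosome 8), an acute-response bZIP factor, fell from 117 ± 39.1 to 45.2 ± 5.51 CPM (-1.37), and pim3 (chromosome 25), a survival kinase, by 0.65. myd88, an adaptor of Toll-like receptors named after its value was seen, fell by 0.77. jak1 (chromosome 6), a cytokine receptor kinase, rose in both treatments (0.37 and 0.36); its call with insulin was lost without replicate 1 of 0.5 hpi.

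The members plotted for this group were chosen after their values were seen, since they rose in PBS. il1b (chromosome 10), an early cytokine, had 2.48 to 4.76 CPM at 0.5 hpi and 1.73 to 2.28 CPM at 4 hpi with insulin (log2 change -0.90, SE 0.38, adjusted p = 0.22), and rose by 1.69 in PBS. The collagenase gene mmp13a (chromosome 10) had 7.19 to 14.7 CPM at 0.5 hpi and 15.2 to 20.6 CPM at 4 hpi (0.71, SE 0.25, adjusted p = 0.15). It rose by 3.12 in PBS, a difference of -2.41 (adjusted p = 0.000375). mmp9 (chromosome 8), a gelatinase of neutrophils and other cells, had a log2 change of 0.76 with insulin (adjusted p = 0.20) and rose by 2.42 in PBS. bcl3 (chromosome 16), an IkB-like regulator, had 0.83 and 2.62 in the same order. The chemokine gene cxcl-c1c (chromosome 1) had -0.35 and 2.91, and irak3 (chromosome 4), a brake on Toll-like receptor signalling, 0.54 and 2.36. The difference of courses passed for all 6 of these genes, and none passed with insulin alone. The PBS rise by which they were chosen is 1 side of that difference, so this count is a description only. Without the 4 libraries that stood apart the difference passed for bcl3 and cxcl-c1c, and not for il1b, mmp9, mmp13a and irak3 (adjusted p = 0.12, 0.21, 0.053 and 0.27).

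**Figure D3:**
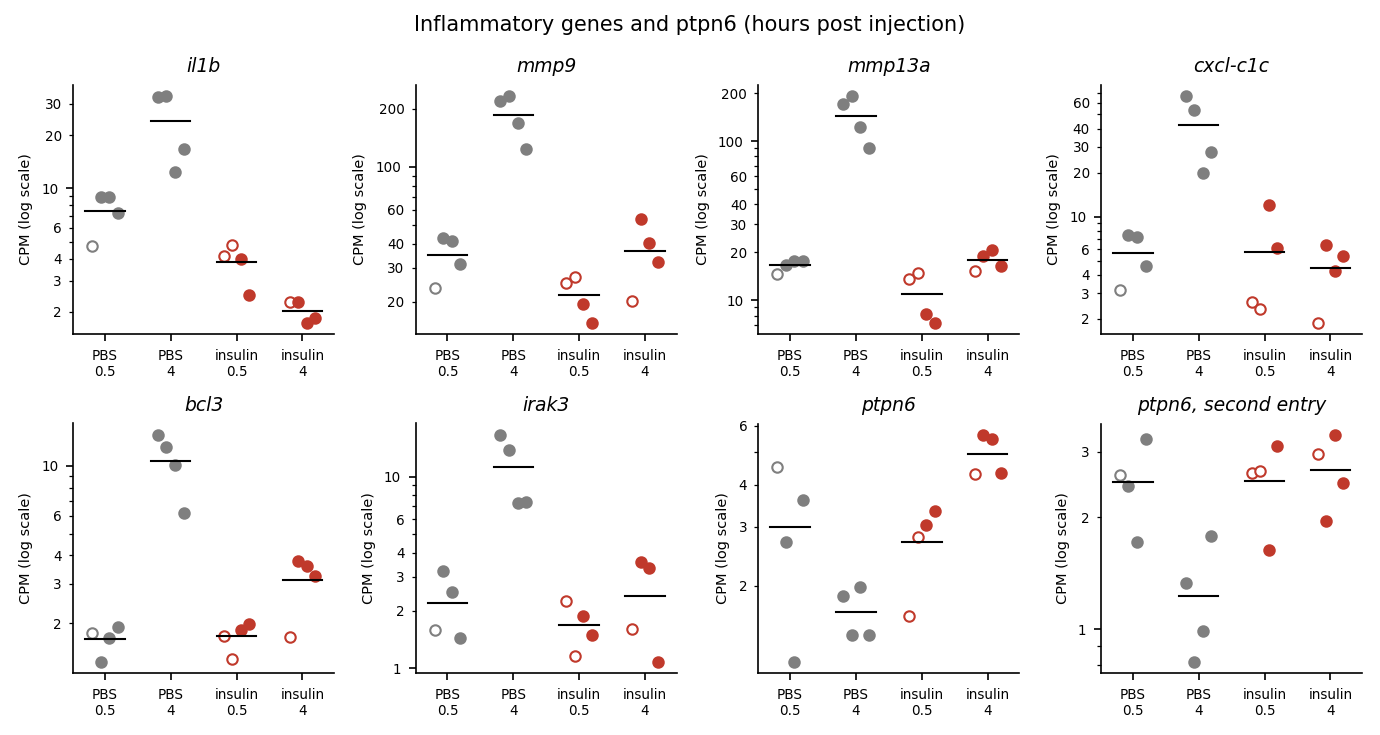
CPM (log axis) of 6 inflammatory genes and both ptpn6 entries; each point is 1 library of 10 embryos, bars are means of 4 libraries, and open circles are the 4 libraries that stood apart. For il1b, mmp9, mmp13a and bcl3 every PBS library of 4 hpi lies above every insulin library, and the first ptpn6 entry is higher at 4 than at 0.5 hpi with insulin and not in PBS.

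Some heat-shock genes rose. Of 34 heat-shock factors and chaperones, which refold damaged proteins, 8 rose and 1 fell (median 0.27), and 9 rose and 1 fell in the 12 libraries (median 0.11). In PBS 4 rose and 4 fell, and the difference of courses passed upward for 10 and downward for 3. These shares were above those of all genes tested (2.92% with insulin, 13.6% in PBS and 9.59% for the difference). serpinh1b (chromosome 15), the collagen chaperone hsp47, had 32.6, 23.2, 22.5 and 26.9 CPM at 0.5 hpi and 199, 91.4, 100.6 and 103 CPM at 4 hpi. Replicate 1 was nearly double the other late libraries, and all 4 lay above every early one. The log2 change was 2.23 (SE 0.23, adjusted p = 2.57e-05) and 2.01 in the 12 libraries, against a fall of 1.59 in PBS. Its difference of courses was 3.82 (SE 0.33, adjusted p = 3.64e-06).

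The 4 inducible HSP70 entries rose, 3 of them on chromosome 3. hsp70.3 measured 7.77, 10.3, 19.1 and 11.7 CPM at 0.5 hpi and 102, 40.4, 49.8 and 38.6 CPM at 4 hpi (log2 change 2.24, SE 0.38, adjusted p = 0.00681). The other entries were hsp70.1 (2.01), HSPA2 (2.11) and hsp70l (2.03, chromosome 8). Their calls were lost with only the 8 insulin libraries. HSP70 copies can be near-identical in sequence, so the split of reads among these entries is uncertain. In all 4 the late replicate 1 was highest, at 52.4 to 102 CPM, and early replicate 3 was the highest early library. In the 12 libraries the changes were 1.5, 1.32, 1.44 and 1.21 and all passed. hsp70.1 was lost without replicates 1 or 2 of 0.5 hpi, and hsp70l without replicates 1, 2 or 4 of 0.5 hpi or 1 or 3 of 4 hpi. Over time in PBS these genes did not pass (0.03 to 0.39), with early PBS means of 15.3 to 33.4 CPM, and the difference passed for hsp70.3 (2.21, adjusted p = 0.0181) and not for the other 3 (adjusted p = 0.053 to 0.11). It passed for all 4 in the 12 libraries (adjusted p = 0.00385, 0.0183 and 0.00443 for HSPA2, hsp70l and hsp70.1). The co-chaperone gene dnaja1l (chromosome 1) rose by 1.1 (difference 1.54). The list member that fell was the heat-shock factor gene hsf2 (chromosome 20), from 64.1 ± 6.60 to 29.2 ± 5.64 CPM (-1.13, edgeR adjusted p = 1.01e-05), with a difference of -1.52.

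Genes of the unfolded protein response followed in smaller number. Of 40 genes 4 rose and none fell with insulin (median 0.14), a share above the 2.92% of all genes tested. In the 12 libraries 5 rose and 2 fell (median 0.00). In PBS 5 fell and none rose, a share near the 13.6% of all genes. The difference passed upward for 9 and downward for none, against 9.59% of all genes. eif2ak3 (chromosome 13), which encodes the stress kinase PERK, had 32.1, 26.8, 30.03 and 30.7 CPM at 0.5 hpi and 50.5, 52.0, 50.6 and 53.3 CPM at 4 hpi. The groups were tight and apart, with a log2 change of 0.79 (SE 0.09, adjusted p = 2.95e-05), a fall of 0.61 in PBS and a difference of 1.39. dnajb9a (chromosome 25), a helper of the ER chaperone BiP, rose by 0.76, and derl3 (chromosome 8), of the ER degradation channel, by 0.68. The call of derl3 was lost without replicate 1 of 0.5 hpi.

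Splicing regulators gave some of the most uniform rises. Of 70 splicing kinases and core factors 6 rose and 1 fell (8 and 1 in the 12 libraries). The share that changed was above the 2.92% of all genes tested. The list median was -0.00, and its sign changed with DESeq2 size factors (0.01). In PBS 2 rose and 7 fell, a share near the 13.6% of all genes tested. The difference passed upward for 10 and downward for none, against 9.59% of all genes. clk4a (chromosome 14), a kinase of SR splicing proteins, had 100.2, 116, 91.0 and 92.6 CPM at 0.5 hpi and 248, 221, 217 and 213 CPM at 4 hpi. All late libraries were about double the early ones (log2 change 1.17, SE 0.10, adjusted p = 1.32e-06). In PBS clk4a fell by 0.62, and the difference was 1.78 (adjusted p = 4.76e-07). rbm4.2 (chromosome 7), an RNA-binding splicing regulator, rose from 45.7 ± 7.03 to 80.8 ± 2.43 CPM (0.82, difference 1.83). safb (chromosome 22), a scaffold attachment factor, rose from 112 ± 5.45 to 181 ± 7.58 CPM (0.69, difference 1.33). nupr1 (chromosome 3), a small stress-induced chromatin protein, had 41.5, 44.2, 46.6 and 45.6 CPM at 0.5 hpi and 114, 116, 107 and 104.9 CPM at 4 hpi. Its log2 change was 1.31 (SE 0.12, adjusted p = 1.47e-06), against a fall of 0.61 in PBS, and the difference was 1.93 (adjusted p = 1.01e-06).

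**Figure D4:**
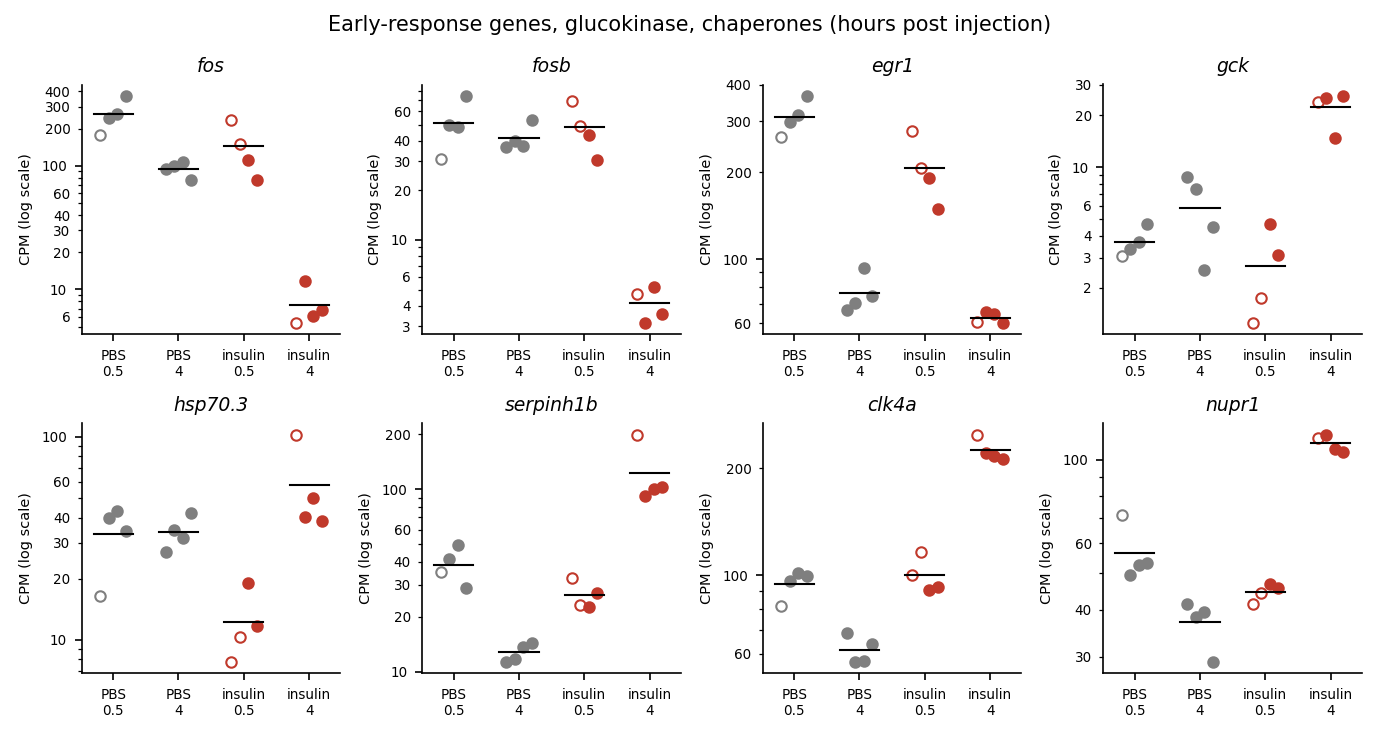
CPM (log axis) of fos, fosb, egr1, gck, hsp70.3, serpinh1b, clk4a and nupr1 in the 4 groups; each point is 1 library of 10 embryos, bars are means of 4 libraries, and open circles are the 4 libraries that stood apart. fos, fosb and egr1 fall from 0.5 to 4 hpi with insulin, of which egr1 reaches a similar level in PBS, and in the other 5 panels every late insulin library lies above every early one.

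Some DNA repair and replication genes fell. Of 39 repair genes 6 fell and none rose (median -0.08), 8 fell in the 12 libraries, and in PBS 6 rose and 5 fell. The shares that changed were above those of all genes tested (2.92% with insulin and 13.6% in PBS). ercc6 (chromosome 13), of transcription-coupled repair, had 30.2, 36.1, 43.5 and 51.2 CPM at 0.5 hpi and 19.6, 26.3, 26.5 and 26.4 CPM at 4 hpi. Its log2 change was -0.70 (SE 0.14, adjusted p = 0.00854), it rose by 0.79 in PBS, and the difference was -1.49. The insulin call was lost with only the 8 insulin libraries. cdkn1a (chromosome 22), the cell-cycle inhibitor p21, fell from 24.7 ± 3.36 to 8.68 ± 2.68 CPM (-1.51, edgeR adjusted p = 2.44e-05) and also fell in PBS (-0.89), and the difference did not pass (adjusted p = 0.099; 0.042 in the 12 libraries). rev1 (chromosome 9), a translesion polymerase gene, fell by 0.41, a call lost without replicate 1 of 0.5 hpi or replicates 2 or 3 of 4 hpi. cry-dash, a photolyase-like gene named after its values were seen, had 31.7 to 73.0 CPM at 0.5 hpi and 26.4 to 30.3 CPM at 4 hpi (log2 change -0.91), and rose by 1.70 in PBS.

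Of 61 replication and licensing genes 7 fell and none rose (median -0.29), and 15 fell in the 12 libraries (median -0.36). In PBS 7 also fell and none rose (median -0.23). The share that changed with insulin was above the 2.92% of all genes tested. The PBS share was a little below the 13.6% of all genes. e2f8 (chromosome 7), an atypical E2F repressor, fell from 32.4 ± 4.33 to 17.2 ± 1.43 CPM (-0.91, edgeR adjusted p = 0.000524; difference -0.79). rrm2 (chromosome 20), the small subunit of ribonucleotide reductase, fell from 79.8 ± 8.37 to 48.7 ± 6.45 CPM (-0.71), with a PBS change of 0.00. The DNA polymerase gene pola1 (chromosome 24) fell by 0.49, a call lost with only the 8 insulin libraries. Mitotic genes fell mainly in PBS. Of 53 tested 2 fell, cdkn1a among them, and none rose with insulin (median 0.00), a share near the 2.92% of all genes tested. There were 25 falls and 1 rise in PBS (median -0.44), against 13.6% of all genes. The difference passed upward for 15 and downward for 1, against 9.59% of all genes. In the 12 libraries 3 fell and none rose with insulin, and the difference passed upward for 12 and downward for 3. Of 50 collagens and their modifying enzymes 2 rose and none fell with insulin (median -0.15), and 1 rose and 15 fell in PBS (median -0.28), with 8 upward differences and 1 downward. The 2 that rose were serpinh1b and sox9b, a cartilage transcription factor gene named after its value was seen (0.55). The share of this list that changed with insulin was little above the 2.92% of all genes tested. In the 12 libraries 2 of the list rose and 4 fell with insulin (median -0.27), with 6 upward differences and 2 downward.

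**Figure D5:**
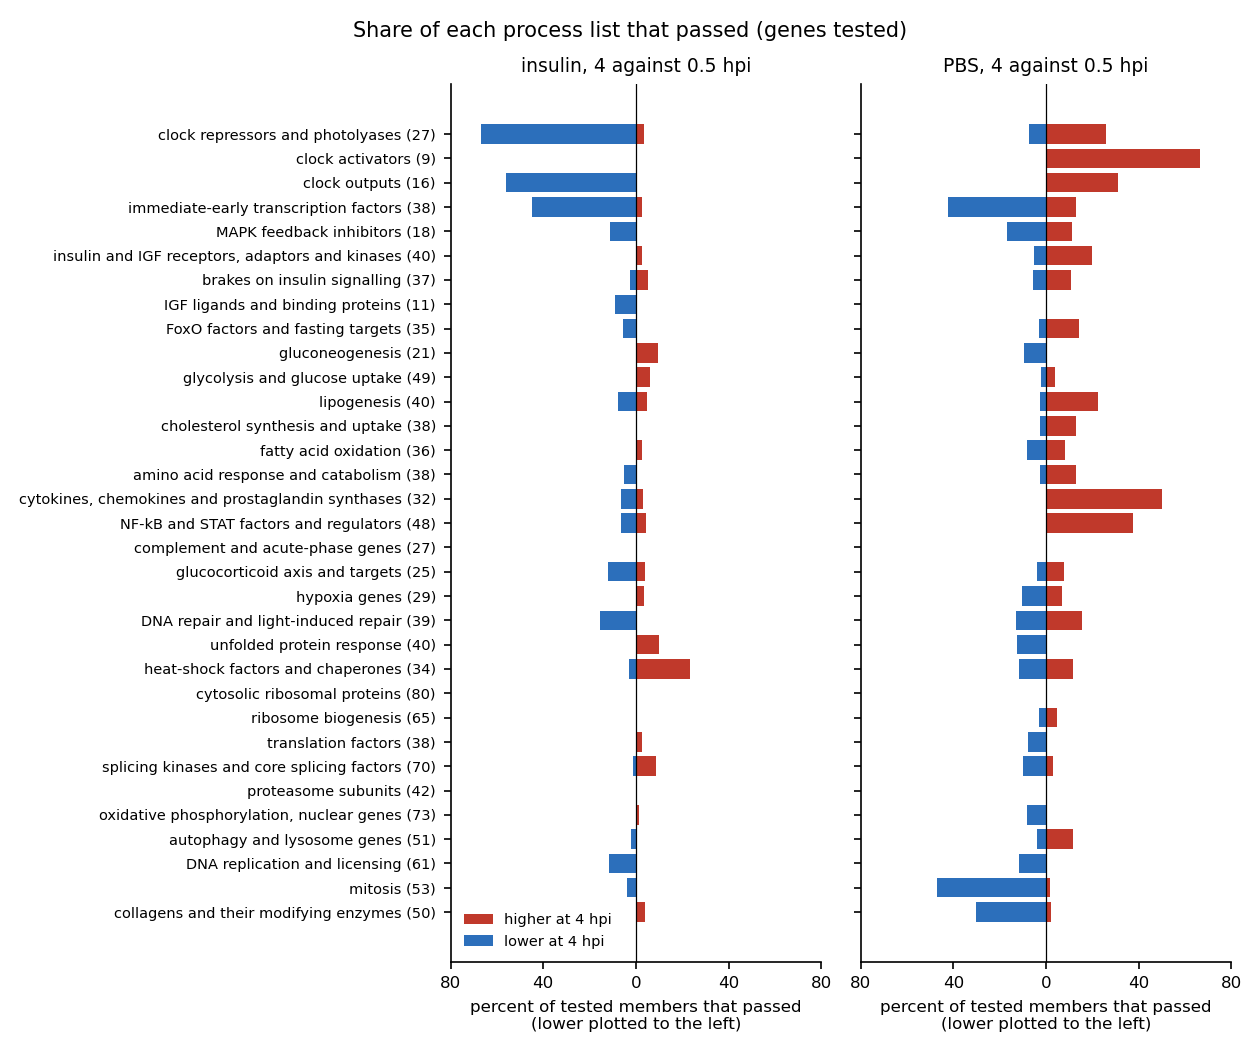
For each of 33 process lists (number of tested genes in brackets), the percent of tested members that passed as higher (red, to the right) or lower (blue, to the left) at 4 hpi, for insulin (left panel) and PBS (right panel). With insulin the longest bars are the falls of clock repressors (18 of 27), clock outputs (9 of 16) and immediate-early factors (17 of 38); in PBS they are rises of clock activators (6 of 9) and cytokines (16 of 32) and falls of mitotic genes (25 of 53).

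Transport, hypoxia and other single genes completed the largest changes. rhcga (chromosome 7), an ammonia channel gene of skin ionocytes, measured 69.7, 67.4, 22.4 and 26.2 CPM at 0.5 hpi and 6.30, 4.33, 3.46 and 1.70 CPM at 4 hpi. The early libraries split into a higher pair, replicates 1 and 2, and a lower pair, and all late libraries lay below both. The log2 change of rhcga was -3.53 (SE 0.46, adjusted p = 0.000963) and -2.85 in the 12 libraries; it also fell in PBS (-2.04), and the difference of -1.49 did not pass (adjusted p = 0.14). Its relative rhcgl1 (chromosome 6) fell from 6.62 ± 2.86 to 0.91 ± 0.66 CPM (-2.84), against -0.33 in PBS, a difference of -2.51 that passed (adjusted p = 0.0134). guca1a (chromosome 4), a calcium sensor of photoreceptor guanylate cyclase, went from 4.13, 4.18, 4.56 and 4.59 CPM to 0.804, 0.542, 0.799 and 0.773 CPM (-2.57, SE 0.33, adjusted p = 9.27e-05). It was the 1 of 67 tested photoreceptor and lens markers that changed, a share below the 2.92% of all genes tested. Its PBS change was -0.10 and its difference -2.47.

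Of the rises, crtac1a (chromosome 1), a secreted matrix protein gene, had 4.38, 3.25, 12.97 and 11.3 CPM at 0.5 hpi and 37.9, 38.2, 36.6 and 40.9 CPM at 4 hpi. The early values again split by library pair, and the log2 change of 2.27 (SE 0.30, adjusted p = 0.000317) was 1.69 in the 12 libraries. crtac1a rose in PBS too (1.46), and the difference of 0.81 did not pass (adjusted p = 0.25). egln3 (chromosome 17), an oxygen-sensing prolyl hydroxylase that marks HIF proteins for decay, had 2.88, 3.83, 1.87 and 3.35 CPM at 0.5 hpi and 4.69, 20.6, 11.6 and 12.1 CPM at 4 hpi. Replicate 1 at 4 hpi was the lowest late library and still lay above the early ones. The log2 change of egln3 was 2.04 (SE 0.38, adjusted p = 0.00648) and its difference from PBS 3.14. It was the 1 of 29 hypoxia genes that changed (median 0.14), a share near the 2.92% of all genes tested. In the 12 libraries 3 hypoxia genes rose and 1 fell. The zinc-finger gene ZMAT1 (chromosome 21) rose from 1.41 ± 0.49 to 5.12 ± 1.54 CPM (1.86; -0.9985 in PBS; difference 2.86). trim35-30 (chromosome 18), of the TRIM ligase family, had 2.255, 1.97, 0.467 and 0.248 CPM at 0.5 hpi and 3.89, 4.98, 6.53 and 4.17 CPM at 4 hpi. Its early values also split by library pair, and the log2 change was 1.98 in all libraries, a call lost without replicate 3 of 4 hpi, and 3.83 in the 12 libraries (adjusted p = 6.16e-06). mcoln1a (chromosome 1), a lysosomal calcium channel gene, fell from 39.2 ± 1.87 to 26.4 ± 3.33 CPM (-0.57) and rose by 1.22 in PBS. Its difference of -1.80 had an edgeR adjusted p of 2.56e-07. It was the 1 of 51 autophagy and lysosome genes that changed with insulin, a share below the 2.92% of all genes tested.

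Some tissue markers passed. Of 30 intestinal markers 3 rose and none fell, of 41 liver markers 2 rose and none fell, and of 42 skin markers 3 fell and none rose. Each of these shares was above the 2.92% of all genes tested. The intestinal risers were anpepb, cdx1b and pck1. Of these, pck1, described above with the gluconeogenic genes, was lost in the 12 libraries. There 3 intestinal markers rose, not the same 3, and none fell, and 2 liver markers rose and 2 fell. Of the skin markers 3 rose and 1 fell there. Summed marker RNA of all 3 lists overlapped between the insulin times. The late replicate 1, which stood apart, was the highest insulin library in each (liver 22580, intestine 6646, skin 25570 CPM). anpepb (chromosome 25), a brush-border peptidase, rose from 115 ± 16.7 to 194 ± 20.5 CPM (0.76, edgeR adjusted p = 0.000575; difference 0.96), and cdx1b (chromosome 21), a gut transcription factor, by 0.64. gc (chromosome 5), the vitamin D carrier made by the liver, rose by 0.74 with overlapping libraries (15.9 to 19.3 and 18.9 to 39.8 CPM). That call was lost with only the 8 insulin libraries. The skin genes ppl, evpla and pkp3, of desmosomes and the cornified envelope, fell by 0.51, 0.86 and 0.53, and none of them passed in the 12 libraries. The erythrocyte spectrin gene sptb (-0.45) and the synaptic gene nrxn1a (-0.56) were the members of their lists that changed. With 27 and 42 genes tested, these shares were near the 2.92% of all genes. Calls were lost for cdx1b without replicates 2, 3 or 4 of 0.5 hpi or 2 or 3 of 4 hpi, for ppl without replicate 2 of 0.5 hpi or 1, 3 or 4 of 4 hpi. They were lost for evpla and pkp3 without replicates 1 or 2 of 0.5 hpi or 1, 3 or 4 of 4 hpi. For sptb they were lost in the 12 libraries (-0.30, edgeR adjusted p = 0.11) and without replicates 1 or 2 of 0.5 hpi or 2 or 4 of 4 hpi. For nrxn1a they were lost without replicate 4 of 0.5 hpi or 1 or 3 of 4 hpi. The evpla call was also lost without each PBS library but replicate 1 of 0.5 hpi. The pkp3 call was also lost without PBS replicates 1 or 3 of 4 hpi. Of 25 glucocorticoid genes 1 rose and 3 fell, a share above the 2.92% of all genes tested. The falls were per1a, described above with the clock genes, and the kinase genes sgk1 (chromosome 23, -0.72) and sgk2b (chromosome 16, -0.65). sgk1 and sgk2b did not pass in the 12 libraries, where per1a did (-2.43). sgk1 was lost without insulin replicates 1 or 2 of 0.5 hpi or any insulin library of 4 hpi. It was also lost without PBS replicate 4 of 0.5 hpi or 1, 3 or 4 of 4 hpi. sgk2b was lost without insulin replicates 1 or 2 of 0.5 hpi or 3 or 4 of 4 hpi.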

How the data were processed

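Whole-embryo RNA-seq was analysed as raw read counts per gene, 1 table per library, deposited by the authors. The genome build was Zv9, per the submitters' processing notes, and no aligner, counter, annotation or strand setting is named (not given in the sources used here), so overlapping genes cannot be told apart. Groups came from the sample titles.

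All 16 libraries in 4 groups were fitted with edgeR 4.0.16 (R 4.3.3; filterByExpr, TMM factors, robust quasi-likelihood test, 12 residual df), with Benjamini-Hochberg adjustment over 21650 genes and a threshold of 0.05. CPM are per TMM-scaled library size, with a prior count of 2 for principal components. Limits: a count of 10 or more for comparing replicate pairs, and 10 CPM for the libraries that stood apart. Alternatives used DESeq2 1.42.0, limma 3.58.1 (voom), other scalings and filters, the replicate block, the library split and each library left out. The alternatives on lanes were chosen after seeing the data. The scripts were tested on simulated data.

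Members and gene lists (33 process and 11 marker lists, 1844 symbols, 1680 matched, 91.1%) were chosen with earlier results of these data known, and 74 entries took their symbol from a name table. Genes were named by rule: the 10 largest changes in each direction whose libraries did not overlap (mean log2 CPM of at least 1), the 3 called members with the smallest p from lists with 3 or more (otherwise 1), the 6 differences of courses with the smallest p in each direction, and ptpn6, pck1, txnipa, txnipb, igfbp1a, fos, per1b, cry1b and cry3. This gave 84 entries, of which the text describes those its groups turn on. Promoter motifs were not analysed here.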

Additional observations from a re-analysis of the deposited data

Results flagged for a closer look

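In 10 of the 168 groups of 4 insulin libraries examined (2 times for each of 84 named entries), 1 library lay far from the other 3 by Dixon's criterion, and chance gives about 1 group in 20. The late replicate 1, which stood apart in the whole series, gave 6 of them. It was high for serpinh1b (199 CPM, others 91.4 to 103), hsp70.1 (95.2 CPM, others 29.8 to 39.8), jak1 (125 CPM, others about 118) and rev1 (35.0 CPM, others 30.1 to 30.6). It was low for ercc6 (19.6 CPM, others 26.3 to 26.5) and nrxn1a (103 CPM, others 132 to 137). Among the other libraries of 4 hpi, guca1a was low in replicate 2 (0.542 CPM, others 0.772 to 0.804), dnajb9a in replicate 3 (11.5 CPM, others 13.5 to 13.9) and cdx1b in replicate 4 (21.9 CPM, others 25.9 to 26.7). At 0.5 hpi hsp70.1 was high in replicate 3 (19.6 CPM, others 9.79 to 10.9).

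For 56 of the 84 named entries the insulin course differed from the PBS course in edgeR's test of the difference itself (adjusted p under 0.05). Over all genes tested the difference passed for 9.59%. Of the 84 entries, 79 had passed in the insulin course, which is 1 side of the tested difference, and some were named for the difference. The naming thus raised the count, which is a description only. In the 12 libraries 48 of the 56 passed. The 8 that did not were gck, akt2l, hkdc1, ptgs2b, sgk1, sptb, cdx1b and evpla, and 9 others passed there (HSPA2, hsp70l, hsp70.1, trim35-30, egr1, grb10a, ddit4, cdkn1a and txnipa). The values are log2 changes with insulin minus those with PBS. The course was more positive with insulin for the metabolic and tissue genes gck (2.41), akt2l (0.58), hnf4a (0.94), hkdc1 (0.87), acaca (0.57), pparg (1.22), gc (1.04), anpepb (0.96), cdx1b (0.71), ptpn6 (1.73) and txnipb (2.1). It was also more positive for the stress, splicing and other genes hsp70.3 (2.21), serpinh1b (3.82), egln3 (3.14), ZMAT1 (2.86), eif2ak3 (1.39), dnajb9a (0.82), dnaja1l (1.54), eif4ba (1), clk4a (1.78), safb (1.33), rbm4.2 (1.83) and nupr1 (1.93).
It was more negative for the clock, immediate-early and feedback genes fos (-2.76), fosb (-3.24), per1a (-2.71), nr1d4b (-2.26), nr1d1 (-1.7), per1b (-1.76), cry3 (-2.8), cry1b (-2.53), lonrf1l (-2.98), nfil3-5 (-1.57), dbpb (-1.23), junbb (-1.18), dusp5 (-1.93) and per2 (-3.11). It was more negative too for rhcgl1 (-2.51), guca1a (-2.47), ppargc1b (-1.08), lpin1 (-2.2), elovl1a (-1.44), odc1 (-1.73), ptgs2b (-2.45), pim3 (-0.85), sgk2b (-1.29), sgk1 (-0.93), ercc6 (-1.49), rev1 (-0.62), hsf2 (-1.52), mcoln1a (-1.8), e2f8 (-0.79), rrm2 (-0.72), sptb (-0.49), evpla (-1.08) and nrxn1a (-0.78).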

How the results depend on the processing

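No called change of a named gene changed sign under the alternatives run. The uncalled changes of txnipa and the second ptpn6 entry did. So did the medians of 7 lists between scalings (cholesterol, cytokines, glucocorticoid, splicing, proteasome, mitosis and muscle), all near 0. With 1 insulin library left out, medians of further lists changed sign, among them that of the cytosolic ribosomal proteins (-0.02 to 0.21). The 633 genes of the insulin course became 266 with only the 8 insulin libraries, 1057 in the 12 libraries that did not stand apart and 1271 with a term for that split. Under other scalings, filters and tools the count ran from 514 (no filter) to 892 (DESeq2 Wald test). Leaving out 1 library gave 336 to 887. The counts were 336 and 381 without insulin replicates 1 and 2 of 0.5 hpi, and 364, 347 and 417 without replicates 2, 3 and 4 of 4 hpi. The difference of courses (2076) ranged from 1455 to 2940 with 1 library left out. It was 2880 in the 12 libraries and 3448 with the split term. The PBS course (2946) ranged from 1704 to 4226 with 1 library left out. It gave 1829, 1852 and 1704 genes without PBS replicates 2 or 3 of 0.5 hpi or replicate 2 of 4 hpi. It was 1926 with the near-identical pair summed and 4302 in the 12 libraries. In the 7 libraries whose header names no lane the insulin course and the difference gave 0 calls in edgeR (689 and 1178 at an unadjusted p under 0.05) and PBS 9, with fewer samples (1 insulin library at 4 hpi). ptpn6 changed by 1.2 (adjusted p = 0.023) with a lane term and by 0.69 to 1.00 with 1 library left out; the cause was not tested. Library totals moved the median difference of courses to -0.103, the share of upward differences from 40% to 22.8% and that of upward PBS calls from 58.5% to 75.3%. With the replicate block the counts were 669, 2278 and 3214 and ptpn6 changed by 0.87 (adjusted p = 0.13). The replicate numbers were not taken as pairing, since the titles do not say that they pair pools. Correlations of same-numbered insulin libraries were 0.16, -0.061, 0.196 and 0.139, and those of different numbers ran from -0.267 to 0.243. For replicates 1, 3 and 4 of 0.5 hpi the same-numbered late library correlated best. Whether the numbers mark pairs was not tested. Of 79 named changes 52 passed without any 1 library and 64 in the 12 libraries, where txnipb also passed. With only the 8 insulin libraries 26 of the 79 were lost, and 12 with a term for a named lane. Among the 26 were ercc6, pola1, gc and HSPA2, which passed without any 1 library. Depth limits low genes such as ptpn6.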

Other observations

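In 3 gene groups most members had a log2 change above 0 with insulin, while few or none passed. Of 80 cytosolic ribosomal protein genes 78 had a log2 change above 0 (median 0.10) and none passed in edgeR, while the PBS median was -0.30. With 1 insulin library left out that insulin median ran from -0.02 to 0.21, so its sign depended on single libraries. Of 73 nuclear genes of oxidative phosphorylation 67 were above 0 (median 0.14), and sdha, a subunit of complex II, was the member that rose (211 to 284 CPM, 0.43). Its call was lost in the 12 libraries and without insulin replicates 1 or 2 of 0.5 hpi or 1 or 4 of 4 hpi. It was also lost without PBS replicates 2 or 3 of 0.5 hpi or 2 of 4 hpi. In the 12 libraries both medians were nearer 0 (0.03 and 0.01). Of 26 exocrine pancreas markers, chiefly digestive enzymes, 24 were above 0 (median 0.79, 0.46 in the 12 libraries) and none passed. At 0.5 hpi their summed level was 1270 and 1984 CPM in replicates 1 and 2, which stood apart. It was 4111 and 4698 CPM in replicates 3 and 4, and 4356 to 6758 CPM at 4 hpi.

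None of 27 complement and acute-phase genes, 65 ribosome biogenesis genes, 42 proteasome subunits, 53 muscle markers or 26 islet markers passed in edgeR over time with insulin, against 2.92% of all genes tested. In the 12 libraries the same lists gave 2, 7, 2, 2 and 0 calls, against 4.8% of all genes tested there. The 7 ribosome biogenesis calls (list median -0.16) and the 2 proteasome calls were falls. For ribosome biogenesis the difference of courses passed downward for 25 and upward for 2 there. In all libraries it passed downward for 4 and upward for 1.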
